A study of Mus musculus with 17 samples.

Results

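The regions described here had at least 2 times more accessibility in Dnmt3-sufficient naive B cells (nB) or germinal center B cells (GCB) than in Dnmt3-sufficient bone marrow plasma cells (BMPC), and had more of it in BMPC that lacked Dnmt3 than in Dnmt3-sufficient BMPC. They number 647 of the 66177 accessible regions. A region was chosen when it lay outside chrX, chrY and chrM, when the smaller of 2 Dnmt3-deficient (KO) BMPC libraries was at least 1.5 times the largest of 3 Dnmt3-sufficient (C) BMPC libraries, when the mean of KO BMPC was at least 3 RPPM, and when the mean of C nB or of C GCB was at least 2 times that of C BMPC. RPPM is the number of reads in a region for every 1000000 reads in all regions of that library. The regions were thus chosen by their values in the C nB, C GCB, C BMPC and KO BMPC libraries, and the values of those libraries are given as descriptions. The KO nB and KO GCB libraries were not used by the rule.

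The study mapped open chromatin with ATAC-seq, in which a transposase cuts accessible DNA, in 16 libraries of sorted mouse cells, with 3 C and 2 KO nB, 2 C and 4 KO GCB, and 3 C and 2 KO BMPC libraries. KO mice carried Cd19cre/wt with both Dnmt3a fl/fl and Dnmt3b fl/fl, and C mice were Cd19wt/wt littermates homozygous for the same floxed alleles, all on the strain that the labels give as B6;129S4, and 8 to 12 weeks old when experiments began. nB were B220+ Fas- GL7- lymph node cells, GCB were B220+ Fas+ GL7+ lymph node cells that bound phycoerythrin (PE), and BMPC were CD138+ bone marrow cells, with GCB and BMPC taken 30 days after immunization with PE in complete Freund's adjuvant. The nB libraries were from male mice, the BMPC libraries from female mice, and the GCB libraries from pools of 2 mice of either sex, so sex and cell type cannot be told apart between nB and BMPC. Cd19cre is expressed from the pro-B stage and recombines in pre-B cells, so the deletion preceded all 3 stages. Accessibility does not report whether the floxed exons were deleted, and for these libraries the genotypes rest on the labels. By PCR, the paper found both genes recombined in bone marrow B cells of KO mice and not of C mice. KO BMPC replicate 3 of the labels was not analysed here.

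Dnmt3a and Dnmt3b place new methyl groups on cytosines of CpG dinucleotides, whereas Dnmt1 copies existing methylation when DNA replicates. When a B cell becomes a plasma cell, Blimp-1 (Prdm1) shuts off Pax5 and with it much of the B cell program, including B cell receptor signaling, antigen presentation and follicular homing, and many enhancers of those genes lose accessibility. Regulatory regions that close in this way can gain DNA methylation.

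The regions shown by sequence stand for the groups described here, namely regions at a B cell regulator (Foxp1), at a homing receptor (Cxcr4) and a cytokine receptor (Il4ra), and the regions with the largest differences in BMPC that lie in introns or between genes (S100z, Plxna2, Acsf3). Each line gives the central 300 bases on the forward strand of the mm9 genome, 5′ to 3′, with CpG dinucleotides in capitals.
Foxp1, chr6:98957631-98957930: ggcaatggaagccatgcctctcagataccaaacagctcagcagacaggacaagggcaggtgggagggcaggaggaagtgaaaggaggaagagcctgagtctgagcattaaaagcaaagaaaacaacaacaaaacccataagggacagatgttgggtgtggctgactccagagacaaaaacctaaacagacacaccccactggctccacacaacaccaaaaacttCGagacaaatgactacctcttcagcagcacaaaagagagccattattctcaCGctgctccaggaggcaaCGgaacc
Cxcr4, chr1:130514419-130514718: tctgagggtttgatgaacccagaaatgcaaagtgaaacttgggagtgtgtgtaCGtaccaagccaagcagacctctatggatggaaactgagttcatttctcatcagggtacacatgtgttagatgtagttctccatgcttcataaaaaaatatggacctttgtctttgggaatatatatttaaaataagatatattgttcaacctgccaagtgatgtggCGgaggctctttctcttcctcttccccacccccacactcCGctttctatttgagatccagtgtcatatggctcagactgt
Il4ra, chr7:132704842-132705141: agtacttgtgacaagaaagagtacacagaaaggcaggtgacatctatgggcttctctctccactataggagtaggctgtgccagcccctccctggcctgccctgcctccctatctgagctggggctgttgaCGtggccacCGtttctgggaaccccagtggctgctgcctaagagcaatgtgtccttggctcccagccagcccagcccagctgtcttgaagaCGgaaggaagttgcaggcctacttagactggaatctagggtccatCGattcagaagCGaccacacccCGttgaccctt
S100z, chr13:96264789-96265088: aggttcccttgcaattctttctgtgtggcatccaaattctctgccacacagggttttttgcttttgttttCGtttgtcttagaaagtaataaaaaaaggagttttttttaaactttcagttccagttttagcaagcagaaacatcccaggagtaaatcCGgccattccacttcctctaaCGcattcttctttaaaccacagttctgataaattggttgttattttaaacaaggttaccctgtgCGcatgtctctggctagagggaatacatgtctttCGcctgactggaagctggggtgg
Plxna2, chr1:196602007-196602306: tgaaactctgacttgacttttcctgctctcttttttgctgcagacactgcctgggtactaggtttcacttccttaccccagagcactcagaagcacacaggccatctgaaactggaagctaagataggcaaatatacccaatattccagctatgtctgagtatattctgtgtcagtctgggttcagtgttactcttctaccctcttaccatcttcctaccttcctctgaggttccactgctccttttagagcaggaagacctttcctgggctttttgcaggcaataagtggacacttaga
Acsf3, chr8:125333075-125333374: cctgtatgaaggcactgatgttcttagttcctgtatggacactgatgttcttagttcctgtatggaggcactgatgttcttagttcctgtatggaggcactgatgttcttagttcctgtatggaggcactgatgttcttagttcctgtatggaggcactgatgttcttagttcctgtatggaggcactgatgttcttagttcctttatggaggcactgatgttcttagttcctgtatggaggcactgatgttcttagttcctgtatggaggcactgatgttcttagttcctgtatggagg
The Foxp1 window is intronic and the Cxcr4 window lies between genes, and each holds 3 CpG. The Il4ra window, in an intron, holds 6, and the S100z window, between genes, holds 5. The intronic windows at Plxna2 and Acsf3 hold 0 CpG. The Acsf3 window is a tandem repeat in which 82.9% of the 20-base words occur more than once and the most frequent word occurs 10 times at a spacing of 29 bases. Reads of its near-identical copies cannot be placed with certainty, so its level is uncertain.

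The rule fixed that the 647 regions were lower in C BMPC than in C nB or C GCB. The median of the group means over the regions was 7.28 RPPM in C nB, 7.74 in KO nB, 6.14 in C GCB, 7.33 in KO GCB, 1.99 in C BMPC and 5.66 in KO BMPC. Between single libraries the median ran from 6.82 to 7.68 RPPM in nB and from 5.62 to 7.71 in GCB. It was 2.34, 1.82 and 1.87 RPPM in C BMPC and 5.59 and 5.79 RPPM in KO BMPC. The regions took 0.206%, 0.158% and 0.174% of the reads in the C BMPC libraries and 0.448% and 0.465% in the KO BMPC libraries. In nB they took from 0.645% to 0.685% and in GCB from 0.599% to 0.680%. These medians average over regions with opposite stage patterns. The 188 regions that passed the rule by GCB alone had a median of 1.58 RPPM in C nB and 5.36 in C GCB, and the 160 that passed by nB alone had 9.23 and 3.21. In sorted bulk cells, fewer open cells and less signal per cell cannot be told apart.

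**Figure D1:**
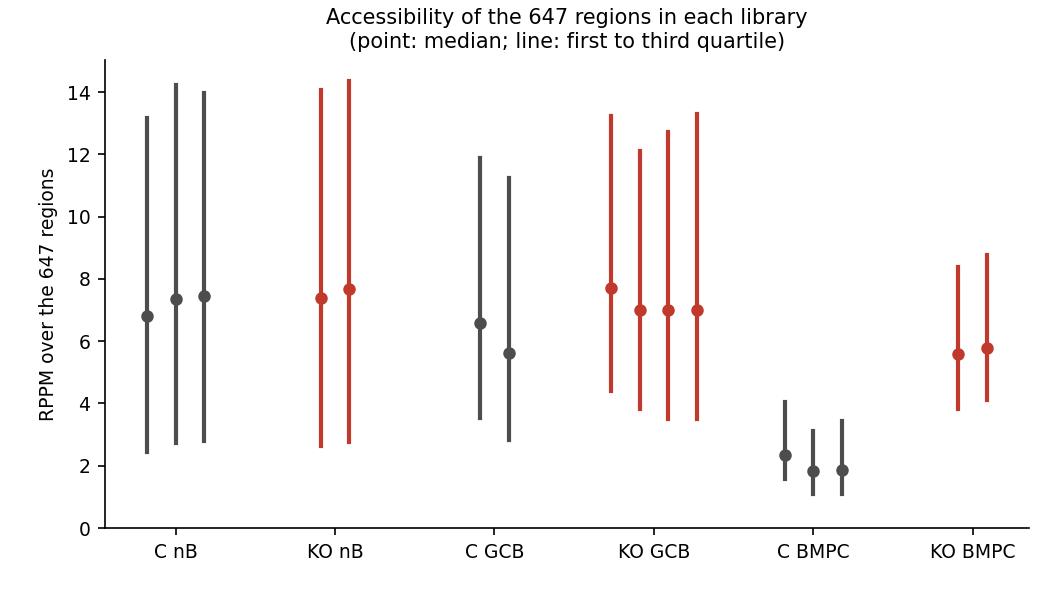
Accessibility in RPPM of the 647 regions in each of the 16 libraries (x axis: cell type and genotype; gray, C; red, KO), with points at the median and lines from the first to the third quartile over regions. The medians of the 3 C BMPC libraries lie from 1.82 to 2.34 RPPM, those of the 2 KO BMPC libraries at 5.59 and 5.79, and those of nB and GCB from 5.62 to 7.71. The BMPC values chose the regions.

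A library held 4104875 to 6079018 reads in regions for nB, 907959 to 2280954 for GCB, and 5357687 to 8232313 for BMPC. A level of 3 reads was worth from 0.364 to 3.30 RPPM, the latter in KO GCB library F1, and such floors cover counting error only. C BMPC library 1 had the highest median of its group, and without it the rule found 1446 regions. Without KO BMPC library 1 it found 1115 and without library 2 it found 1257, because each condition then had to hold in fewer libraries.

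The regions were 2.91% of the 22260 regions that closed in C BMPC by the same factor of 2. Among the 6640 closing regions whose KO BMPC mean reached 3 RPPM they were 9.74%, and the other 5993 were not gained by the rule. They were 35.0% of the 1849 regions that met the other conditions, and the remaining 1202 were gained in KO BMPC without having closed. Of the 647 regions, 299 closed from nB and from GCB, 160 from nB only and 188 from GCB only. Regions that closed 2 to 4 times in C numbered 340 (3.89% of all such regions), those that closed 4 to 8 times 195 (3.501%) and those that closed more than 8 times 112 (1.41%). These shares are of closing regions at any KO level, while the rule asked for a KO BMPC mean of 3 RPPM. That minimum kept out regions that closed to low levels, which favors a falling share, so nothing is read from it.

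The share of the C loss at which KO BMPC stood varied widely between regions. Setting C BMPC to 0% and the higher C stage to 100%, KO BMPC stood at a median of 57.2%, with quartiles of 30.3% and 100.9%. In 213 regions the KO BMPC mean was under 50% of the higher C stage, and in 163 it was at or above that stage. A description as failed closing does not cover those 163, since their KO level was at or above that of the earlier C stage. The 317 regions that were at 10 RPPM or more in C nB or C GCB had a median of 32.0%. The higher C stage was under 3 RPPM in 70 regions. KO nB and KO GCB, which the rule did not use, gave much the same earlier level, with the higher of their means at 3 RPPM or more in 579 regions and at least 2 times C BMPC in 609. The choice by high C nB or C GCB and low C BMPC favored these counts, so they are a description. The ratio of KO to C BMPC means had a median of 2.59 with quartiles of 2.14 and 3.34, and it was 4 or more in 110 regions.

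**Figure D2:**
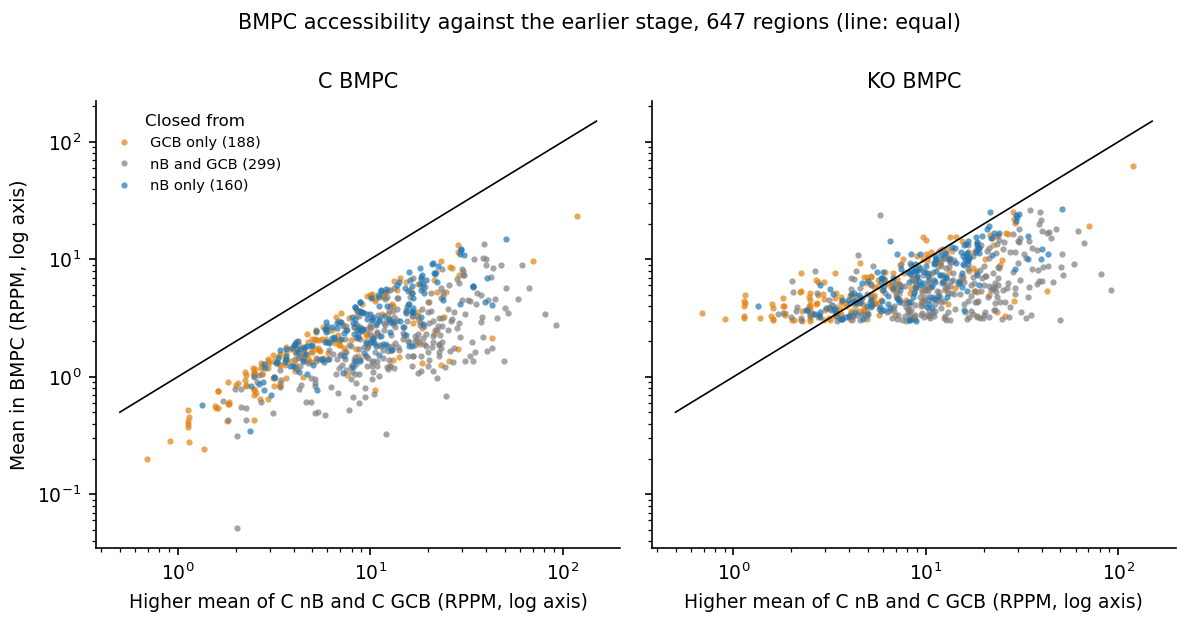
Mean RPPM of the higher C stage (x axis, nB or GCB) against mean RPPM in BMPC (y axis) for each of the 647 regions, both on log axes, with 1 point per region and genotype. In 163 regions the KO BMPC mean reached or passed the higher C stage, and in 213 it stayed under 50% of it.

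At the edges of the rule, regions inside and outside differed little. The smaller KO over the largest C BMPC value was 1.5003 at Ece1 and 1.5011 at B4galt5, just inside, and 1.4988 at Lpin1 and 1.4984 at an unnamed region of chromosome 13, just outside. The KO BMPC mean was 3.01 RPPM at Gdpd1 and St6galnac3, inside, and 2.98 at an unnamed region of chromosome 8 and 2.97 at Ptprj, outside. The higher C stage over C BMPC was 2.0023 at Lpp and 2.0153 at Aff3, inside, and 1.9987 at Pik3r1 and 1.9975 at Tifab, outside.

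The largest differences between KO and C BMPC were at regions of varied genes, which the deposited table assigns by overlap or by the nearest gene. The Acsf3 region in an intron (chr8:125332479-125333969), at a gene for a mitochondrial acyl-CoA synthetase, had 22.5, 28.6 and 18.4 RPPM in C BMPC and 47.3 and 76.7 in KO BMPC. It was highest in GCB, with 91.0 and 148 RPPM in C and 111, 125, 192 and 177 in KO, against 35.3, 52.9 and 36.3 in C nB and 44.9 and 48.6 in KO nB. This is the repeat shown by sequence, and 5 of 644 windows (0.776%) had 50% or more repeated words, against 0.596% of the windows of all regions.

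The S100z region between genes (chr13:96264434-96265443), at a gene for a small calcium-binding protein, was at 0.910, 0.365 and 0.156 RPPM in C BMPC and 22.2 and 25.4 in KO BMPC. It had 5.12, 0 and 0.186 RPPM in C nB, 0 and 0 in KO nB, 8.80 and 2.81 in C GCB and 1.10, 0.636, 5.26 and 6.99 in KO GCB. Both KO BMPC libraries were above every other library, and its place among regions that closed from nB rested on 1 C nB library. The same stretch of 59818 bases held 3 more of the 647 regions, all assigned to F2rl1, a receptor that proteases activate. The one in an exon and 3′ UTR (chr13:96282574-96283044) was at 0, 0 and 0.156 RPPM in C BMPC, where the last value is 1 read, and at 7.17 and 5.79 in KO BMPC. In nB and GCB of both genotypes it reached 2.64 RPPM at most. The 4 regions of this locus were higher in KO BMPC than at any other stage of either genotype by their means.

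The Plxna2 region in an intron (chr1:196601689-196602623), at a gene for a semaphorin receptor, had 4.14, 5.46 and 4.09 RPPM in C nB, 4.11 and 5.71 RPPM in KO nB, 32.1 and 24.8 RPPM in C GCB, 46.3, 36.3, 35.1 and 24.5 RPPM in KO GCB, 13.1, 9.31 and 12.0 RPPM in C BMPC and 25.1 and 25.4 RPPM in KO BMPC. It was high in GCB, low in nB, and KO BMPC reached the lower part of the GCB range. The Mllt3 region between genes (chr4:87328587-87329375), at a gene for a subunit of a transcription elongation complex, had 25.8, 23.7 and 22.1 RPPM in C nB, 25.7 and 23.2 RPPM in KO nB, 5.72 and 3.75 RPPM in C GCB, 7.71, 6.36, 5.26 and 2.10 RPPM in KO GCB, 7.02, 2.37 and 4.204 RPPM in C BMPC and 13.6 and 19.97 RPPM in KO BMPC. It was high in nB and low in GCB, and the KO BMPC libraries stood between the nB range and C BMPC.

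The promoter region of Mgmt (chr7:144085755-144086655), which encodes a DNA repair protein that removes alkyl groups from guanine, had 13.3, 7.66 and 9.03 RPPM in C BMPC and 23.8 and 29.1 in KO BMPC. C nB had 28.3, 26.0 and 28.5 RPPM and C GCB 22.9 and 46.4, so the KO BMPC values overlapped those of earlier stages. The promoter region of 9030617O03Rik (chr12:102016547-102018044) had 9.10, 7.66 and 6.38 RPPM in C BMPC, 24.4 and 26.3 in KO BMPC and 19.5, 23.9 and 20.8 in C nB. The other regions among the 10 with the largest differences were at Twsg1, 2900026A02Rik, Serinc5 and an unnamed site on chromosome 16 (chr16:25052652-25053550), for which the nearest gene in GENCODE vM1 is Lpp. At Serinc5, which encodes a membrane protein, C BMPC had 2.34, 2.55 and 2.02 RPPM and KO BMPC 14.7 and 16.1, above every value in C GCB (13.2 and 6.09) and KO GCB (1.10, 8.27, 11.8 and 6.29). The 5 largest ratios were at S100z, the 2 F2rl1 regions with the lowest C values, Cep250 and Rassf8. At Cep250, a centrosome gene, the promoter region (chr2:155799756-155800232) had 0.650, 0.547 and 0.311 RPPM in C BMPC, 7.90 and 9.52 in KO BMPC and 5.36, 3.96 and 6.70 in C nB.

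Genes of the B cell program held 31 of the regions in 4 lists. At genes for B cell transcription factors, 16 of 367 closing regions (4.36%) were among the 647. Foxp1 alone held 11 of these 16 and had 59 of the 367 closing regions, so the share of this list rests largely on 1 gene. The counts were 7 of 206 (3.40%) for B cell receptor signaling, 4 of 153 (2.61%) for activation, costimulation and cytokine receptors and 4 of 157 (2.55%) for positioning and adhesion, beside 2.91% of all closing regions. Genes for antigen presentation by MHC class II had 0 of 40 closing regions, germinal center genes 0 of 48 and plasma cell genes 0 of 45. The 31 regions had a median mean of 10.4 RPPM in C nB, 11.6 in KO nB, 6.36 in C GCB, 6.89 in KO GCB, 2.91 in C BMPC and 6.64 in KO BMPC. Of the 31, 4 were annotated as promoter, beside 47 (7.26%) of the 647, and in 8 the KO BMPC mean was at or above the higher C stage. In the contrast that the rule did not use, KO GCB against KO nB, 3 of the 31 were higher, 10 were lower and 18 were not called, beside 18.4% of all regions called higher and 7.84% lower, by the test described with that contrast. Of the 31, 13 passed the rule by both stages, 12 by nB alone and 6 by GCB alone. The C levels behind this mix favor calls in KO cells too, so nothing particular to B cell genes is read from these counts.

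Among transcription factors, an intronic region of Nfatc1 (chr18:80849499-80849960), a factor activated by calcium signals, had 1.95, 0.942 and 1.12 RPPM in C nB, 0.658 and 0.984 RPPM in KO nB, 8.80 and 11.2 RPPM in C GCB, 8.81, 12.7, 11.8 and 10.5 RPPM in KO GCB, 6.503, 3.10 and 5.29 RPPM in C BMPC and 12.8 and 16.4 RPPM in KO BMPC. It was low in nB and high in GCB of both genotypes, and KO BMPC was at or above the GCB values. KO GCB exceeded KO nB by a log2 change of 2.71 ± 0.29 (SE; limma, Benjamini-Hochberg adjusted p = 1.41e-08). This region passed the rule by GCB alone, which favored that direction. An intronic region of Nfatc2 (chr2:168350287-168350798), a related factor, had 2.60, 2.55 and 1.09 RPPM in C BMPC and 4.86 and 4.11 in KO BMPC, and KO GCB exceeded KO nB by a log2 change of 1.92 ± 0.33 (SE; limma, Benjamini-Hochberg adjusted p = 2.18e-05). The Nfatc2 region also passed by GCB alone, with the same limit. A region 32328 bases from the start of Irf8 (chr8:123292605-123292809), which encodes a factor of B cells and myeloid cells, had 2.08, 1.82 and 1.71 RPPM in C BMPC and 4.13 and 3.92 in KO BMPC, with a log2 difference of 0.36 ± 0.31 (SE; limma, Benjamini-Hochberg adjusted p = 0.342) between KO GCB and KO nB.

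For signaling from the B cell receptor, the promoter region of Pip5k1b (chr19:24629946-24631025), whose product makes the phospholipid that phospholipase C cleaves, had 38.5, 31.8 and 31.8 RPPM in C nB, 40.5 and 33.1 RPPM in KO nB, 6.60 and 3.75 RPPM in C GCB, 5.51, 9.55, 8.33 and 4.19 RPPM in KO GCB, 9.23, 4.01 and 4.67 RPPM in C BMPC and 16.03 and 15.5 RPPM in KO BMPC. It was high in nB and low in GCB, and KO BMPC stood above every GCB library. KO GCB differed from KO nB by a log2 change of -2.31 ± 0.28 (SE; limma, Benjamini-Hochberg adjusted p = 1.18e-07). This region passed the rule by nB alone, which favored a lower level in KO GCB. The intronic region of Lyn (chr4:3664088-3664659), a kinase of the receptor, had 11.9, 12.4 and 12.5 RPPM in C nB, 6.16 and 6.56 in C GCB, 4.55, 3.65 and 3.89 in C BMPC and 7.65 and 7.09 in KO BMPC. KO BMPC at Lyn was below every nB library. The promoter region of Rasgrp3 (chr17:75835037-75835859), an activator of Ras, was at 1.69, 2.01 and 1.246 RPPM in C BMPC and 3.77 and 5.04 in KO BMPC. Regions near Plcg2, the phospholipase C of B cells, and Bank1, a B cell adaptor, reached KO BMPC means of 5.70 and 3.54 RPPM.

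Of the receptors that place B cells in lymphoid tissue, Cxcr4 binds CXCL12 and holds plasma cells in bone marrow, Cxcr5 guides B cells to follicles, and Gpr183 senses oxysterols. The Cxcr4 region shown by sequence (chr1:130514361-130514776) had 17.8, 13.4 and 17.1 RPPM in C nB, 18.4 and 20.1 RPPM in KO nB, 12.3 and 11.7 RPPM in C GCB, 7.71, 10.2, 10.96 and 8.39 RPPM in KO GCB, 8.06, 4.197 and 7.79 RPPM in C BMPC and 14.2 and 12.7 RPPM in KO BMPC. A single KO BMPC library lay within the range of C nB and the other just below it, while every KO GCB library was below both C GCB libraries. The region upstream of Cxcr5 (chr9:44373510-44373831) had 17.3, 15.8 and 19.5 RPPM in C nB, 5.72 and 7.49 in C GCB, 1.69, 2.01 and 2.65 in C BMPC and 7.17 and 6.91 in KO BMPC, and KO GCB differed from KO nB by a log2 change of -1.35 ± 0.23 (SE; limma, Benjamini-Hochberg adjusted p = 1.98e-05). The region upstream of Gpr183, inside an intron of Ubac2 (chr14:122371848-122372655), had 4.42, 5.11 and 4.98 RPPM in C BMPC and 8.99 and 8.03 in KO BMPC, against 27.7 and 20.1 in C GCB.

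Among genes of activation and cytokine response, the intronic region of Il4ra (chr7:132704735-132705248), the receptor chain for interleukin 4, had 7.80, 11.7 and 11.2 RPPM in C nB, 10.4 and 10.2 RPPM in KO nB, 1.32 and 2.34 RPPM in C GCB, 2.20, 3.18, 0.438 and 5.59 RPPM in KO GCB, 2.73, 3.65 and 2.80 RPPM in C BMPC and 7.53 and 7.84 RPPM in KO BMPC. It was open mainly in nB, and KO BMPC was above all GCB libraries. The region upstream of Cd83 (chr13:43864358-43864557), an activation marker, had 12.7, 14.9 and 12.8 RPPM in C nB, 3.51, 1.82 and 3.43 in C BMPC and 6.80 and 6.16 in KO BMPC. The promoter region of Nfkbiz (chr16:55823600-55823875), whose product modulates NF-kB, had 7.48 and 15.9 RPPM in C GCB, 5.85, 3.65 and 4.98 in C BMPC and 12.1 and 11.6 in KO BMPC. A region near Traf3, an adaptor that limits B cell survival signals, had a KO BMPC mean of 3.24 RPPM.

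**Figure D3:**
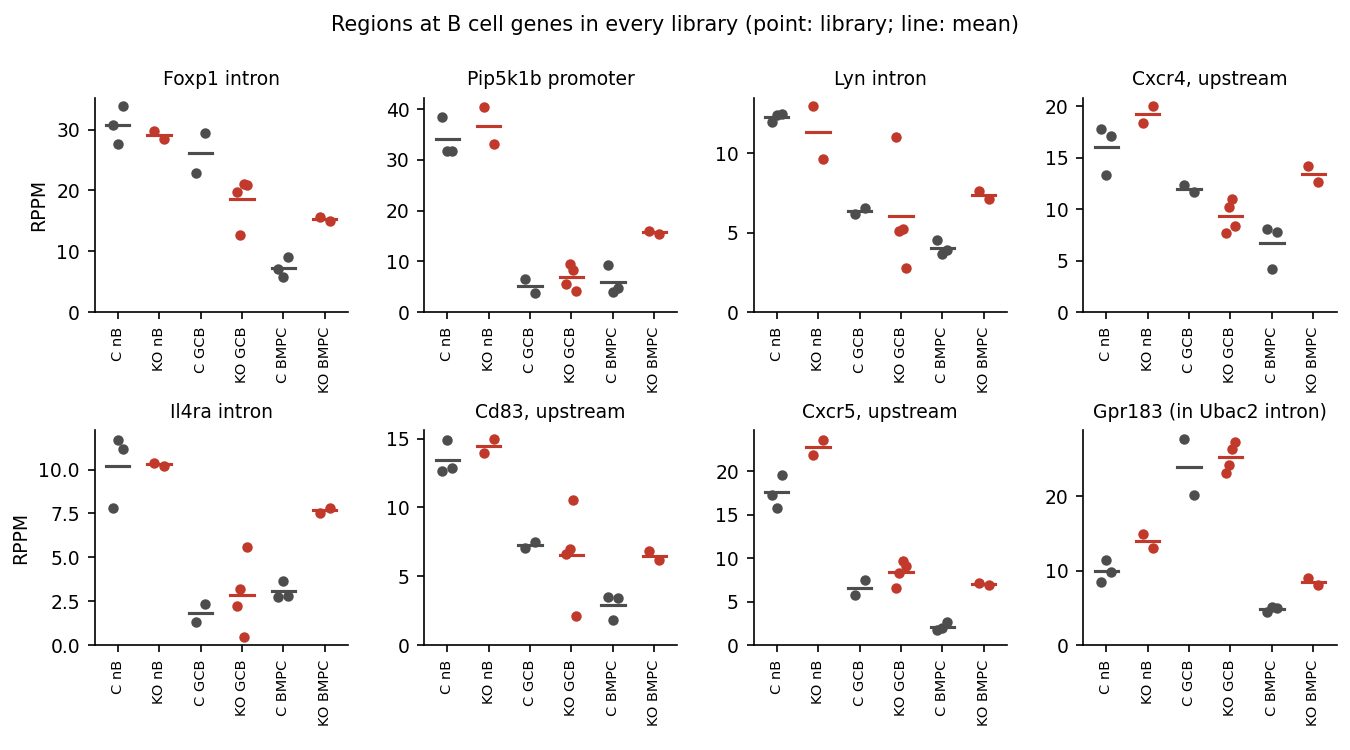
Mean RPPM with each library as a point at regions of B cell genes in the 6 groups (y axis in RPPM; x axis, cell type and genotype). At the Cxcr5 region the KO BMPC libraries are at 6.91 and 7.17 RPPM, above the 3 C BMPC libraries (1.69 to 2.65), within the range of GCB and below nB.

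Several genes held more than 1 region. The table names 481 genes with any of the regions, of which 405 had 1, 52 had 2 and 24 had 3 or more, and 48 regions had no gene name. Foxp1, a transcription factor of B cell development, had 11 of its 102 regions among the 647, out of 59 that closed in C. Their means ran from 3.29 to 32.4 RPPM in C nB, from 1.10 to 7.30 in C BMPC and from 3.73 to 15.3 in KO BMPC. Of these, 8 lie within 197965 bases. The Foxp1 region shown by sequence (chr6:98957431-98958129) had 30.7, 27.7 and 33.9 RPPM in C nB, 29.8 and 28.5 RPPM in KO nB, 22.9 and 29.5 RPPM in C GCB, 19.8, 12.7, 21.0 and 21.0 RPPM in KO GCB, 7.02, 5.84 and 9.03 RPPM in C BMPC and 15.7 and 14.9 RPPM in KO BMPC. It was high in every nB and GCB library, with KO GCB below C GCB, and KO BMPC overlapped KO GCB. Its window matches the E-box CACCTG, the ETS core GGAAGT and the composite of ETS and IRF sites GGAANNGAA. Of the 11 regions, 4 were lower in KO GCB than in KO nB, 0 were higher and 7 were not called. The most significant of these 4 (chr6:99252947-99253527, intronic) changed by a log2 value of -1.40 ± 0.23 (SE; limma, Benjamini-Hochberg adjusted p = 1.23e-05). It passed the rule by nB alone, which favored this direction.

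**Figure D4:**
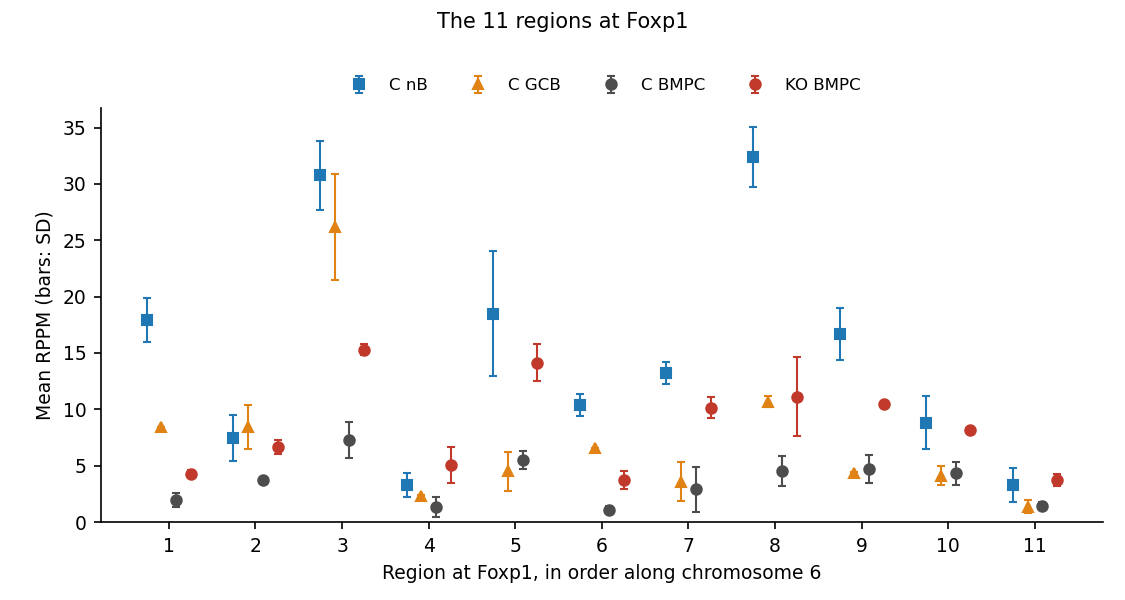
Mean RPPM ± SD over libraries at the 11 Foxp1 regions, in their order along chromosome 6 (x axis), in C nB, C GCB, C BMPC and KO BMPC. KO BMPC lies above C BMPC at each region, as the rule required, with means from 3.73 to 15.3 RPPM, and below C nB at most of them.

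Itpr2, a calcium channel of the endoplasmic reticulum, had 6 regions with KO BMPC means from 4.18 to 9.13 RPPM against 1.57 to 4.60 in C BMPC. Their levels differed more at earlier stages, from 2.38 to 50.9 RPPM in C nB, and none of the 6 was called between KO GCB and KO nB. Mgmt had 5 of the 7 regions within 161841 bases, and 2 of the 5 were higher in KO GCB than in KO nB. The stronger of these (chr7:144128849-144129230) had 0.658 and 1.77 RPPM in KO nB and 9.91, 8.91, 11.8 and 19.6 in KO GCB, a log2 change of 2.60 ± 0.37 (SE; limma, Benjamini-Hochberg adjusted p = 1.66e-06). It passed the rule by GCB alone, which favored this direction. Wls, a carrier for Wnt secretion, had 4 of the 5 regions within 2406 bases around its start, and 3 of the 4 were lower in KO GCB than in KO nB. Nfkb1, the p50 subunit of NF-kB, had 3 regions, 1 higher and 1 lower in that contrast. In a stretch of chromosome 8 without gene names (chr8:129343086-129408554), 5 of 19 regions were among the 647, and the nearest protein-coding gene in GENCODE vM1 is Tomm20. Their means ran from 5.64 to 50.8 RPPM in C GCB and from 3.13 to 16.4 RPPM in KO BMPC. A930011G23Rik, Dab2ip, Fam53b and Prkce had 4 regions each. Those with 3 were Acoxl, B4galt5, Cldn14, Crtc3, F2rl1, Gnptab, Hivep2, Mta3, Myo1e, Myom1, Nfkb1, Plxnc1, Ppap2b, Sgms1, Stc1 and Tenm4.

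KO GCB was compared with KO nB, whose libraries took no part in the choice of regions. The test was limma, fitted to log2(RPPM + 1) of all 66177 regions, and a region was called at a Benjamini-Hochberg adjusted p of at most 0.01 and a log2 change of at least 1 in size. Changes on this scale understate those of low regions, and p-values measure the spread between these libraries. Of the 647 regions, 134 (20.7%) were higher in KO GCB, beside 18.4% of all regions, and 102 (15.8%) were lower, beside 7.84% of all regions. The other 411 were not called. Of 188 regions that closed from GCB only, 110 (58.5%) were higher in KO GCB and 0 lower, with a median log2 change of 1.27. Of 160 that closed from nB only, 62 (38.8%) were lower and 0 higher, with a median of -0.90. Of 299 that closed from both, 24 were higher and 40 lower, with a median of -0.19. Closing regions with a KO BMPC mean of at least 3 RPPM that were not among the 647 gave like shares, with 1267 of 2089 (60.7%) higher for GCB only, 766 of 1747 (43.8%) lower for nB only, and 97 higher and 221 lower of 2157 for both. The classes were set by the C nB and C GCB levels, which favors these directions in KO nB and KO GCB too, so nothing particular to the 647 regions is read from them. The median over all regions was 0.12 on this scale. Of the calls among the 647 regions, 56.8% were higher in KO GCB, and this split was 50.2% with TMM scaling, 49.4% with DESeq2 and 37.6% after quantile normalization. None of the 236 called regions changed sign under any of 16 alternative settings. Without KO nB library 1 the calls fell to 153 and without KO nB library 2 to 161.

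**Figure D5:**
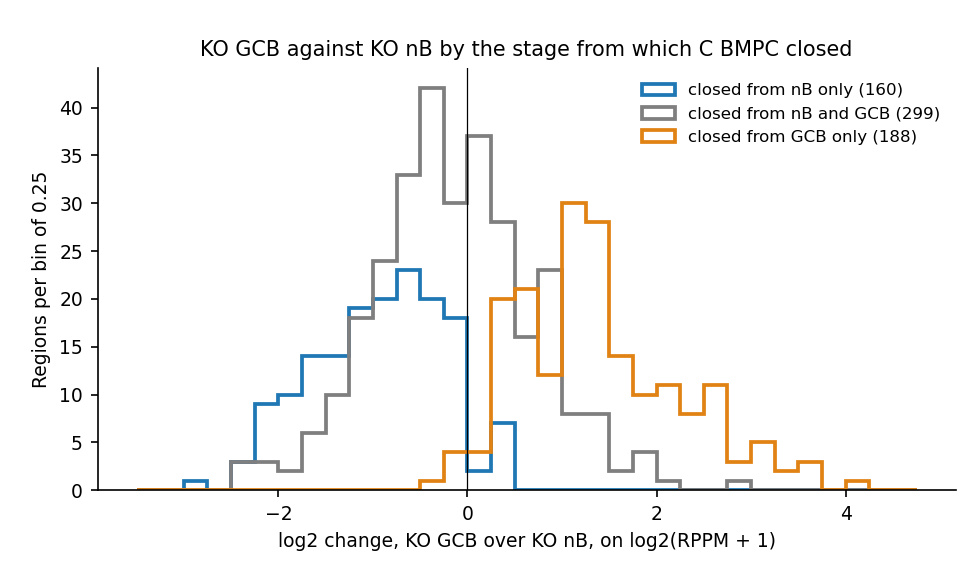
Number of regions (y axis) by log2 change of KO GCB over KO nB on log2(RPPM + 1) (x axis, bins of 0.25), by the stage from which C BMPC had closed. The median was -0.90 for the 160 regions that closed from nB only, -0.19 for the 299 that closed from both and 1.27 for the 188 that closed from GCB only, and the classes, set by C nB and C GCB levels, favor these directions.

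The largest changes in this contrast came from genes of varied function. As with the classes, the choice by C nB and C GCB levels favored such changes. At Fam73a, a mitochondrial gene, the region (chr3:151995417-151996149, in an exon, an intron and a 3′ UTR) had 0.658 and 0.787 RPPM in KO nB and 22.0, 28.6, 23.7 and 35.7 in KO GCB, a log2 change of 4.03 ± 0.29 (SE; limma, Benjamini-Hochberg adjusted p = 1.24e-11). The region near Plxnc1 (chr10:94430029-94430556), a semaphorin receptor, had 0.658 and 0.984 RPPM in KO nB and 19.8, 26.7, 23.2 and 16.8 in KO GCB, a change of 3.62 ± 0.27 (SE; limma, Benjamini-Hochberg adjusted p = 2.14e-11). KO GCB was far above KO nB at both, and KO BMPC was at 4.49 and 4.29 RPPM at Fam73a and 3.89 and 3.17 at Plxnc1. Wdr37 changed by 3.61 ± 0.30 (SE; limma, Benjamini-Hochberg adjusted p = 1.99e-10), Rad51ap2 by 3.53 ± 0.29 (SE; limma, Benjamini-Hochberg adjusted p = 1.61e-10) and Stt3b, a catalytic subunit for protein glycosylation, by 3.34 ± 0.26 (SE; limma, Benjamini-Hochberg adjusted p = 8.04e-11). In the other direction, the region near Cd1d1 (chr3:86820974-86822150), which presents lipids to NKT cells, had 45.2 and 39.6 RPPM in KO nB and 8.81, 5.09, 9.65 and 1.40 in KO GCB, a change of -2.79 ± 0.35 (SE; limma, Benjamini-Hochberg adjusted p = 2.51e-07). At the promoter of Dmrt3, a transcription factor gene (chr19:25684992-25685692), KO nB had 21.1 and 18.7 RPPM and KO GCB 3.30, 3.18, 3.51 and 1.40, a change of -2.48 ± 0.30 (SE; limma, Benjamini-Hochberg adjusted p = 1.45e-07). Iqgap2, a cytoskeletal scaffold, changed by -2.41 ± 0.32 (SE; limma, Benjamini-Hochberg adjusted p = 7.41e-07), Lpp by -2.36 ± 0.24 (SE; limma, Benjamini-Hochberg adjusted p = 9.06e-09) and Nyap1 by -2.31 ± 0.27 (SE; limma, Benjamini-Hochberg adjusted p = 9.16e-08).

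Dnmt3 loss was also compared before the plasma cell stage. In nB, the KO mean was above the C mean in 359 regions and below it in 287. Limma called 0 of the 647 regions and 0% of all regions between KO and C nB. At an unadjusted p under 0.05, 14 of the 647 were higher and 4 lower, beside 417 and 690 of all 66177. The likelihood ratio test and the quasi-likelihood test of edgeR each called 1 of the 647, beside 10 and 7 of all regions. DESeq2 called 0 of the 647, beside 1 of all regions. In GCB, 404 were above and 243 below, and limma called 3 (0.464%) as higher in KO GCB, beside 0.0317% of all regions. The median log2 change of KO over C was 0.04 in nB over the 647 regions and -0.01 over all regions, and 0.10 and 0.03 in GCB. The C libraries of both stages took part in the rule, so nothing is read from these counts beyond the values. Whether the difference between KO and C in BMPC exceeded that in nB or GCB was not tested, because the rule fixed the BMPC difference.

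KO against C BMPC is the contrast that chose the regions. Limma called 42 of the 647 (6.49%) higher in KO, beside 0.0907% of all regions, and the likelihood ratio test of edgeR, run on recovered read numbers, called 402 (62.1%), beside 2.01% of all regions. Nothing is read from these counts. For KO BMPC against KO nB, which shares the KO BMPC libraries with the rule, limma called 129 (19.9%) lower in BMPC, beside 16.9% of all regions, and 109 (16.8%) higher, beside 18.4%.

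The regions lay mostly away from promoters. As annotated in the deposited table, 47 (7.26%) overlapped a promoter, beside 21.5% of all regions and 13.3% of the regions that closed and were not gained. An intron was overlapped by 59.7% and an exon by 12.4%, beside 58.8% and 25.3% of all regions, and 36.2% lay outside transcripts, beside 35.5%. The median distance to a transcription start was 19.7 kb against 11.4 kb, and 23.8% lay more than 50 kb away, against 15.7%. Median widths were 505 and 511 bases. Of the regions gained in KO BMPC without having closed, 6.41% overlapped a promoter and 22.0% lay more than 50 kb from a start. A low promoter share is thus not particular to the regions described here.

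The sequence was read from mm9 in the central 300 bases of the 644 regions on assembled chromosomes. The windows held a mean of 5.37 CpG, beside 8.86 in all regions, 6.28 in regions that closed and were not gained and 5.98 in regions that were gained without having closed. Away from transcription starts by more than 2 kb the mean was 4.93, beside 4.71 in all regions. GC content had a median of 49.2%, beside 49.3%. Motif letters were searched on both strands and a match is a description of the letters. GGAAGT, the core of PU.1 and related ETS factors, was in 42.6% of the windows, beside 40.1% of those closed and not gained, 30.8% of those gained without closing and 30.2% of all windows. It was in 49.5% of regions that closed from both stages, 44.0% from nB only and 30.3% from GCB only. GGAANNGAA, which can overlap GGAAGT, was in 20.03%, beside 15.2%, 17.4% and 11.6% in the same order. The E-box CAGCTG was in 25.2%, beside 19.9%, 31.3% and 20.7%. The E-box CACCTG was in 28.7%, beside 24.1%, 43.9% and 27.0%, with 38.3% in regions that closed from GCB only and 21.4% from nB only. TGTGGT, the RUNX core, was in 19.4%, beside 26.7%, 20.3% and 24.6%. The octamer ATGCAAAT was in 3.57% and the EBF1 letters TCCCNNGGG in 5.28%, beside 3.97% and 6.44% of all windows. The AP-1 letters TGANTCA were in 11.5% beside 9.19%, the CTCF letters CCACNAGG in 6.52% beside 8.63%, the NF-kB letters GGACTTTCC in 0.311% beside 0.595% and the MEF2 letters TATTTATA in 1.71% beside 1.61%.

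Markers of B cells and of other cells were read at their promoters, because fewer or more cells of another kind in a CD138+ sort would move with these values. The summed level of plasma cell promoters (15 of 19 genes with one) was 874 to 924 RPPM in C BMPC and 891 to 918 in KO BMPC, against 706 to 771 in nB. Pax5, which was at 36.0 to 47.7 RPPM in nB, was at 3.77, 2.74 and 2.02 RPPM in C BMPC and 3.89 and 2.05 in KO BMPC, and Fcer2a (CD23) at 0.910, 0.365 and 2.34 RPPM in C and 0.972 and 0.560 in KO. Over the whole lists, the summed promoter level in BMPC ran from 1993 to 2038 RPPM in C and from 1882 to 1921 in KO for B cell transcription factors (29 of 30 genes with a promoter region), and from 1310 to 1362 and from 1347 to 1361 for B cell receptor signaling (31 of 32). It ran from 388 to 440 and from 367 to 370 for MHC class II (10 of 10), from 60.0 to 76.0 and from 66.4 to 70.9 for T and NK cells (5 of 13), and from 36.5 to 42.7 and from 35.5 to 37.5 for myeloid cells (4 of 13). It ran from 80.8 to 93.7 and from 86.4 to 86.98 for erythroid cells and megakaryocytes (3 of 9) and from 73.3 to 82.7 and from 69.0 to 82.1 for B cell precursors (4 of 9). For activation, costimulation and cytokine receptors (30 of 30) it ran from 1215 to 1225 and from 1155 to 1158, for positioning and adhesion (20 of 20) from 802 to 847 and from 744 to 755, and for germinal center genes (9 of 12) from 306 to 314 and from 307 to 308. Both KO BMPC libraries lay below every C BMPC library in the sums for B cell transcription factors, MHC class II, activation and positioning, and in no list did both lie above every C library. The part of these sums in the results was not tested. The 1618 regions that were at 20 RPPM or more in C nB or C GCB and at least 8 times C BMPC had a median of 1.53 RPPM in C BMPC and 1.57 in KO BMPC, with KO above C in 879, and 59 of them were among the 647. Of the lists for other cells, T and NK cells held 1 region, near Klrb1c (NK1.1), and myeloid cells 1, near Itgam (CD11b). Their C nB values were 7.80, 13 and 11.5 and 7.06, 4.90 and 5.58 RPPM. Both passed the rule by nB alone, so the rule favored these values and nothing about other cells is read from them.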

How the data were processed

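Per the study's methods and the submitters' processing notes, the authors trimmed reads, mapped them to mm9 with Bowtie (1.1.1 in those notes), called peaks with MACS2 at a q-value of 0.01, took the union over samples and deposited RPM values for each region and library, which are reads scaled to all reads in regions and are called RPPM here. The deposited log2 fold changes, p-values and FDR of the authors' 9 comparisons were not used, and 0 columns of values per library were left unmapped. All RPPM values (100%) were whole multiples of 1 read within 0.1 read, and these recovered reads served the edgeR 4.0.16 and DESeq2 1.42.0 tests.

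The main test used R 4.3.3 and limma 3.58.1. It modelled log2(RPPM + 1) by 6 group means in a single fit with a variance trend and Benjamini-Hochberg adjustment over all 66177 regions. Calls needed an adjusted p no higher than 0.01 together with a log2 change of at least 1. It was also run on simulated data, in which only the more abundant regions were changed, so that run does not cover low regions. Alternatives were pseudocounts of 0.1 and 5, a minimum mean of 1 RPPM, TMM and quantile scaling, the compared groups only, other tools, an adjusted p of 0.05, other thresholds of the rule, a replicate block and each library left out.

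The members and gene lists were chosen with earlier results of these data known. Regions named are those of the lists (at most 25, and 2 a gene, in full), the 10 largest differences and 5 largest ratios in BMPC with C at no less than 3 reads, genes with 3 or more regions, 2 regions on each side of each threshold, and the 5 largest changes each way in KO GCB against KO nB. A few items under this rule are not reported here. Names of genes nearest to unnamed regions came from GENCODE vM1, and sequences from the NCBIM37 (mm9) reference, whose chromosomes contain every region searched. Python 3.11.15, pandas 2.3.3, numpy 2.4.6 and matplotlib 3.10.9 were used.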

Additional observations from a re-analysis of the deposited data

Results flagged for a closer look

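Among 50 groups of 4 KO GCB values (the regions described by library and summaries of the libraries), 4 had a library that stood apart by Dixon's criterion, which chance flags in about 1 of 20 groups. At the Foxp1 region chr6:98957431-98958129, KO GCB library F2 had 12.7 RPPM, below the other 3. At the Nfkbiz promoter region, library F1 had 3.30 RPPM, which is 3 reads in the shallowest library, and at the Dmrt3 promoter region, library M1 had 1.40 RPPM. The median over the 647 regions was 7.71 RPPM in library F1, above the other 3 KO GCB libraries.

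At 3 of the 48 regions described by library, every KO library lay below every C library at an earlier stage, the opposite of BMPC. KO minus C was -0.573 RPPM in nB at Stt3b, with means of 1.08 and 1.66. In GCB it was -7.55 RPPM at the same Foxp1 region, with means of 18.6 and 26.2, and -2.70 RPPM at the Cxcr4 region chr1:130514361-130514776, with means of 9.31 and 12.0. Over all 647 regions this held at 61 in nB and 24 in GCB, and every KO library lay above every C library at 104 in nB and 84 in GCB. The same counts were not made over all regions, so nothing is read from them. The difference between stages was not tested, and the rule fixed the direction in BMPC.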

How the results depend on the processing

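The rule found 1247 regions with the KO to C BMPC ratio lowered by 0.25 from 1.5, 233 with a ratio of 2, 376 with a KO BMPC minimum of 5 RPPM, and 339 after quantile normalization, of which 324 were among the 647. Leaving out single libraries gave from 639 to 1446, and at least 594 of the 647 were found again.

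For KO against C BMPC, the main fit made 42 calls among the 647, beside 69 over all regions. There were 187 (402 over all regions) at an adjusted p of 0.05 and 23 (100) with a pseudocount of 5. Quantile normalization gave 8 (15), edgeR's quasi-likelihood test 331 (1201), its likelihood ratio test 402 (1677) and DESeq2 210 (489). Leaving out single libraries gave from 1 to 61, with 8 without C BMPC library 2 or 3 and 1 without either KO library. For KO GCB against KO nB, in place of 236, there were 112 with a pseudocount of 5 and from 153 to 248 without single libraries. Over all regions that pseudocount gave 7009 calls, in place of 17393. The 30 named regions that the main fit called kept their sign under every alternative. The signs of the named regions not called were not compared. For KO BMPC against KO nB, in place of 238, there were 116 with a pseudocount of 5, beside 12757 in place of 23350 over all regions. There were fewer than 238 without any single library, each of which leaves 1 library in a group.

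For KO against C nB, in place of 0, the quasi-likelihood and likelihood ratio tests each gave 1, beside 7 and 10 over all regions. Leaving out single C nB libraries gave 0 of the 647 throughout. For KO against C GCB, in place of 3, there were 9 at an adjusted p of 0.05, 1 with a pseudocount of 0.1 or 5, 0 with the compared groups only, 0 with the quasi-likelihood test, 1 with the likelihood ratio test, 0 with DESeq2 and from 0 to 9 without single libraries. Over all regions, the settings before the left-out libraries gave 117, 18, 5, 8, 1, 12 and 0 calls, in that order, in place of 21. The cause of these changes was not tested. Both genotypes have GCB pools named F2 and M1, with correlations of deviations of 0.0363 and 0.0638. The deviations of the C pools mirror each other, so these are not separate checks and cannot tell whether the pools share more than a name. With the pool name as a replicate block, 0 of the 647 regions and 9 of all regions were called.

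GCB libraries were the shallowest, so regions at or near 3.30 RPPM there rest on few reads. KO BMPC had 2 libraries and KO nB 2.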
